A study of Mus musculus with 18 samples.

Results

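The genes described here are 40 listed genes of amino acid supply: the cytosolic aminoacyl-tRNA synthetases, enzymes that make serine, asparagine, proline and one-carbon units, and amino acid transporters. They were chosen by name from the gene table of the array, with no measured value in the rule. Earlier results of these data were known when they were chosen. The array gave 25371 tested genes, of which 16790 have a symbol and the others are probes without one, each counted as a gene. Of the 40 listed genes, 39 could be tested. The remaining one, Pycr1, was not analysed here, and Mars is listed in the reference gene table as Mars1. Expression was measured in whole mouse retina on 18 arrays, each of which set Cy5-labelled retinal RNA against a Cy3-labelled universal mouse reference RNA. All mice carried loxP-flanked alleles of Map3k12, the gene of dual leucine zipper kinase (DLK), and all were adults treated with tamoxifen, given at 10 to 12 weeks of age to the Cre-positive mice. Cre-positive mice also carried a Cre recombinase fused to an estrogen receptor (Cre-ERT), driven by the CAG promoter, which is active in many tissues and is not restricted to ganglion cells. Per the labels, most DLK was lost from these retinas and a small, variable amount of protein remained. Cre-negative mice carried the floxed alleles without the transgene.

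Retinas were taken 3 days after optic nerve crush, an injury to the axons of the retinal ganglion cells, and uninjured eyes served as controls. The groups were Cre-negative uncrushed (n = 4), Cre-negative crushed (n = 3), Cre-positive uncrushed (n = 5) and Cre-positive crushed (n = 5). For the 1 remaining array, a Cre-negative retina, the title and treatment say uncrushed and the description says crushed, so it entered no comparison. The labels do not say which arrays come from separate animals or from the eyes of 1 animal, so p-values measure the spread between these samples, which may in part be technical.

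Aminoacyl-tRNA synthetases join each amino acid to its transfer RNA and so supply the ribosome. When amino acids run short, or when a kinase of the integrated stress response phosphorylates the initiation factor eIF2α, the transcription factor ATF4 is translated and switches on genes for synthetases, for serine, asparagine and proline synthesis, for mitochondrial folate enzymes and for amino acid import. DLK is a kinase of injured axons that signals through JNK and c-Jun.

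ATF4 pairs with C/EBP proteins on a composite element, and the letters most such elements share, TGATGNAA, were searched on both strands in the RefSeq promoter windows of the reference table (GRCm38.p6, 250 bases before to 50 after each gene's start). Windows were matched for 29 of the 40 genes, and none for Cars, Hars, Lars, Nars, Rars, Vars, Wars, Aldh1l2, Cth, Slc7a5 and Slc7a3. The motif was found in 10 of the 29, against 1219 of 27025 genes with a window (4.51%). Among the tested genes with a window it was in 6 of the 13 that were higher after crush in Cre-negative retinas and in 3 of the 15 that were not called, namely Iars, Got1 and Slc1a4. The tenth was Pycr1. No other motif was searched, and a match says only that these letters lie in the window. The promoters of the 6 are shown 5′ to 3′ on the gene's strand with the motif, or its reverse complement TTNCATCA, in capitals. For Asns, at chr6:7693210-7693359 on the minus strand, and Slc7a11, at chr3:50443614-50443763 on the minus strand, the 150 bases before the start are given. For the synthetases Aars (chr8:111033710-111033861, plus strand), Gars (chr6:55037951-55037998, plus), Tars (chr15:11399646-11399693, minus) and Yars (chr4:129189886-129189922, plus) only the stretch around the motif is given.
Asns: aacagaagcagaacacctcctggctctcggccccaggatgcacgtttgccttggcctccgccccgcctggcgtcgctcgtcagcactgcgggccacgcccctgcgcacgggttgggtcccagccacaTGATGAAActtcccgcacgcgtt
Slc7a11: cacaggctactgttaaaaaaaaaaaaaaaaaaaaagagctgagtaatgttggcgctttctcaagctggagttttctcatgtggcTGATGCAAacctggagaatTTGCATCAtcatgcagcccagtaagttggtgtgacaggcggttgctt
Aars: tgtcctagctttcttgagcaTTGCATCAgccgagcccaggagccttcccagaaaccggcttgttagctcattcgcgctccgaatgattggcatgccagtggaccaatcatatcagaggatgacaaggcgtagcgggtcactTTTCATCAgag
Gars: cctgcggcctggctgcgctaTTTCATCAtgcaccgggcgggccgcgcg
Tars: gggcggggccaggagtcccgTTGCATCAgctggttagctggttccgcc
Yars: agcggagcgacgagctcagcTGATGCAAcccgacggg
In Asns the motif ended 16 bases before the annotated start. Slc7a11 held 2 copies on opposite strands, beginning at positions -66 and -47 relative to its start, and Aars held 2 on the same strand, 1 of them just after the start.

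All 39 genes were well above background on all 17 arrays, none was saturated, and arrays of a group correlated at r of 0.982 to 0.996 across genes. Values of single genes are log2 of retinal over reference signal. Map3k12 read 2.02 ± 0.18 (SD, n = 10) in Cre-positive and 2.46 ± 0.16 (n = 7) in Cre-negative retinas, with overlap, and whether its probe lies in the deleted part is not known. Of 3 Esr1 probes 1 was at 2.71 ± 0.49 in Cre-positive and -0.67 ± 0.12 in Cre-negative retinas, with no overlap, so no array with agreed labels went against its genotype. Ganglion cell markers were lower after crush in Cre-negative retinas for 8 of 11 genes, against 0.808% of all genes. Their summed Cy5 signal lay between 98471 and 118695 units on Cre-negative uncrushed arrays and between 48801 and 57740 on crushed ones. All such sums are of signal before normalization and were not scaled for the brightness of each array. In Cre-positive retinas the sums of ganglion cell markers were 104427 to 123733 uncrushed and 84329 to 93921 crushed. There 2 of 11 were called lower, against 0.0867% of all genes. Pou4f3 was well above background on 1 array and the other 11 listed ganglion cell markers on all 17. Microglia and macrophage markers were higher after crush for 4 of 11 genes in the Cre-negative groups and 9 of 11 in the Cre-positive groups. Over all genes 1.34% and 0.682% were called higher. Their sums were 35028 to 39962 uncrushed and 34399 to 38181 crushed in the first and 32638 to 36817 and 39427 to 56607 in the second. Their mean normalized log2 ratio was also taken, relative to the Cre-negative uncrushed mean. It was -0.019 to 0.015 uncrushed and 0.36 to 0.44 crushed in Cre-negative retinas, without overlap. In Cre-positive retinas it was -0.0025 to 0.17 uncrushed and 0.40 to 0.96 crushed. Pigment epithelium markers had no call by limma in any comparison (9 tested, with 0 or 1 at an unadjusted p under 0.05 in each). Their sums lay between 6061 and 8326 on Cre-negative uncrushed arrays and between 4049 and 5767 on Cre-negative crushed arrays, without overlap. On Cre-positive arrays the sums were 5317 to 12902 uncrushed and 4587 to 11844 crushed. The normalized means of these markers did overlap in Cre-negative retinas, at -0.19 to 0.14 uncrushed and -0.38 to -0.034 crushed. All 9 were above 0 in the Cre-positive minus Cre-negative difference of crushed retinas (median log2 0.63) and of crush responses (median 0.34). In whole retina, fewer cells of a type and less RNA per cell cannot be told apart, and the part of these shifts in cell markers in the changes of the 39 genes was not tested.

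Arrays that stood apart were 1 of the Cre-positive uncrushed group (array 4), with cornea markers summing to 57186 units where the other 4 of its group had 5734 to 10032, and 1 of the Cre-positive crushed group (array 5), with lens markers at 7812 units where the other 4 had 959 to 1261. Without both, limma called 18 of the 39 genes after crush in Cre-negative retinas, 0 in Cre-positive retinas (where 120 of all genes were called in place of 195), 7 in the difference between the genotypes' crush responses and 10 between genotypes after crush. Counting the array with disagreeing labels as Cre-negative uncrushed gave 5, 0, 0 and 3 genes called in these comparisons, and counting it as Cre-negative crushed gave 19, 1, 7 and 13.

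In Cre-negative retinas 18 of the 39 genes were higher after crush and none was lower, by limma with a Benjamini-Hochberg adjusted p under 0.05 over all genes tested. Over all genes 2.15% were called in this comparison, 1.34% higher and 0.808% lower. The change was above 0 for 33 of the 39, against 50.6% of all genes. The median log2 change was 0.26 over the 39 genes and 0.0015 over all genes. The crushed and uncrushed arrays did not overlap for 24 of the 39, all with crushed arrays higher, against 8.81% of all genes. By role, the called genes were 8 of 20 cytosolic synthetases, 3 of 3 enzymes of serine synthesis, 5 of 7 transporters, 1 of 3 genes of asparagine synthesis and transamination, and 1 of 3 enzymes of mitochondrial one-carbon metabolism. Proline synthesis (0 of 1 gene, with 1 at an unadjusted p under 0.05) and transsulfuration (0 of 2, none at an unadjusted p under 0.05) had no call by limma. Over all 25371 genes tested, 3393 had an unadjusted p under 0.05 in this comparison. In Cre-positive retinas crush called none of the 39 genes, against 0.769% of all genes. An unadjusted p under 0.05 (limma) was reached by 10 of the 39 and by 2423 of all 25371 genes. The median log2 change of the 39 there was 0.066 and 28 of them were above 0, against 50.1% of all genes. Crushed arrays lay above all uncrushed ones for 5 of them (Psat1, Tars, Slc7a5, Aars and Kars), against 1.52% of all genes; of all genes 0.682% were called higher and 0.0867% lower.

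**Figure D1:**
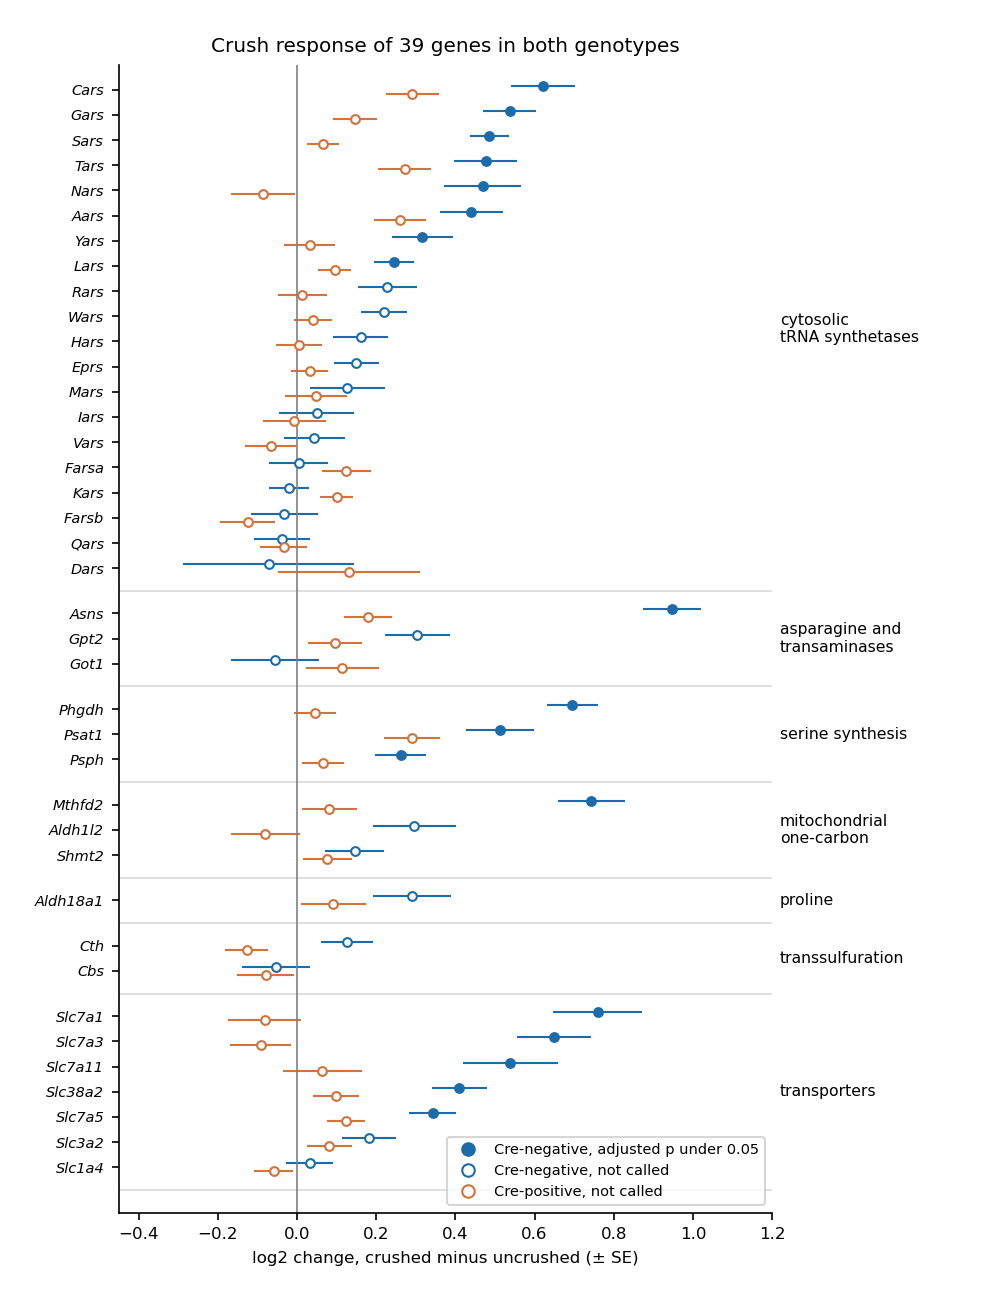
Log2 change from uncrushed to crushed retina (x axis, mean ± SE from limma) for each of the 39 tested genes, ordered by role, in Cre-negative (blue) and Cre-positive (orange) retinas; filled points passed an adjusted p under 0.05. The 18 filled points are all blue and lie between 0.24 for Lars and 0.95 for Asns, while the orange points lie between -0.13 and 0.29.

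Asparagine synthetase, Asns, which makes asparagine from aspartate and glutamine, had the largest change of the 39. Values are log2 of retinal over reference signal, so a value below 0 means a weaker signal than in the reference pool, and levels of different genes cannot be compared. In Cre-negative retinas Asns read -1.65, -1.59, -1.66 and -1.75 on the uncrushed arrays and -0.70, -0.77 and -0.67 on the crushed arrays. In Cre-positive retinas it read -1.40, -1.61, -1.55, -1.59 and -1.57 uncrushed and -1.46, -1.47, -1.33, -1.42 and -1.16 crushed. The 3 Cre-negative crushed arrays stood above every other array, and the Cre-positive groups overlapped. The crush response of Asns was 0.95 ± 0.073 (SE) on the log2 scale in Cre-negative retinas, a 1.93-fold rise (adjusted p = 2.01e-07, limma). In Cre-positive retinas it was 0.18 ± 0.061 (adjusted p = 0.285). Of the other genes of this group, the alanine transaminase Gpt2 changed by 0.30 ± 0.083 in Cre-negative retinas without passing the test (adjusted p = 0.0704), although its groups did not overlap, and the aspartate transaminase Got1 by -0.055 ± 0.11.

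All 3 enzymes that make serine from a glycolytic intermediate rose after crush in Cre-negative retinas. Phgdh, the dehydrogenase that opens the pathway, read -3.62, -3.73, -3.63 and -3.61 uncrushed and -2.93, -2.89 and -3.02 crushed in Cre-negative retinas. Its Cre-positive values were -3.68, -3.63, -3.58, -3.43 and -3.70 uncrushed and -3.56, -3.64, -3.51, -3.50 and -3.58 crushed. Only the 3 Cre-negative crushed arrays stood apart, by 0.70 ± 0.064 (adjusted p = 2.16e-06, limma), and the Cre-positive change was 0.046 ± 0.053. The other probe of Phgdh gave 0.73 ± 0.071 in Cre-negative retinas and was also called. Psat1, the aminotransferase of the following step, read -2.39, -2.26, -2.38 and -2.20 uncrushed and -1.69, -1.93 and -1.77 crushed in Cre-negative retinas. It read -2.18, -2.29, -2.29, -2.28 and -2.27 uncrushed and -2.15, -2.00, -1.73, -2.08 and -1.91 crushed in Cre-positive retinas. Crushed arrays were higher without overlap in both genotypes here, with changes of 0.51 ± 0.085 (adjusted p = 0.00182) and 0.29 ± 0.071 (adjusted p = 0.0715), of which the first passed. The dimmer probes of Psat1 (0.37 ± 0.11) and of the next enzyme, Psph (0.20 ± 0.062), did not pass in Cre-negative retinas. Psph, the phosphatase that completes the pathway, ranged from -0.84 to -0.68 uncrushed and from -0.53 to -0.46 crushed in Cre-negative retinas, a change of 0.26 ± 0.065 that passed narrowly (adjusted p = 0.0417). This call was lost when any of 9 of the 17 arrays was left out: Cre-negative uncrushed 1, 3 or 4, Cre-negative crushed 1, 2 or 3, Cre-positive uncrushed 3, or Cre-positive crushed 2 or 4 (log2 change 0.24 to 0.29 over the 17 such fits, adjusted p up to 0.162). The Psph call was also lost with the scanner's processed signals (0.25, adjusted p = 0.0659, limma) and with the Cy5 channel alone (0.24, adjusted p = 0.194). So it was with no filter on dim probes (0.26, adjusted p = 0.0597). With the array of disagreeing labels counted as Cre-negative uncrushed it was lost too (0.21, adjusted p = 0.277).

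Serine feeds one-carbon units into the mitochondrial folate cycle, and in that group Mthfd2, the dehydrogenase that makes formate precursors there, was the gene that passed. Mthfd2 read -2.80, -3.07, -3.16 and -2.92 on Cre-negative uncrushed arrays and -2.33, -2.28 and -2.12 on crushed arrays. Its Cre-positive arrays read -2.73, -2.74, -2.96, -2.77 and -2.84 uncrushed and -2.62, -2.79, -2.83, -2.71 and -2.70 crushed. The Cre-negative crushed arrays were the highest of all, a rise of 0.74 ± 0.084 (adjusted p = 2.28e-05, limma), and the Cre-positive groups overlapped (0.082 ± 0.069). Aldh1l2, which oxidises the formyl unit carried by folate to carbon dioxide, and Shmt2, which takes the one-carbon unit from serine, gave 0.30 ± 0.11 and 0.15 ± 0.074 in Cre-negative retinas (adjusted p = 0.201 and 0.42). Aldh18a1, which opens proline synthesis, gave 0.29 ± 0.10 (adjusted p = 0.175). The transsulfuration genes Cbs and Cth, which make cysteine from homocysteine, gave -0.052 ± 0.086 and 0.13 ± 0.066 in Cre-negative retinas and -0.079 ± 0.071 and -0.13 ± 0.054 in Cre-positive retinas.

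Among the 7 transporters, 5 rose after crush in Cre-negative retinas, and both cationic amino acid carriers were among them. Slc7a1, which carries arginine and lysine, read -2.00, -1.97, -2.07 and -1.81 uncrushed and -1.27, -1.29 and -1.05 crushed in Cre-negative retinas. In Cre-positive retinas it read -1.87, -1.55, -1.94, -1.51 and -1.96 uncrushed and -1.84, -1.84, -2.02, -1.67 and -1.87 crushed. Slc7a1 rose by 0.76 ± 0.11 in Cre-negative retinas (adjusted p = 0.000489, limma) and changed by -0.081 ± 0.092 in Cre-positive retinas, where 2 uncrushed arrays lay above all 5 crushed ones. Slc7a3, a related carrier found mainly in neurons, read 0.14, 0.050, 0.068 and -0.26 uncrushed and 0.59, 0.68 and 0.67 crushed in Cre-negative retinas. It read 0.29, 0.028, 0.37, 0.15 and 0.067 uncrushed and 0.069, 0.0011, 0.21, 0.057 and 0.10 crushed in Cre-positive retinas. The 3 Cre-negative crushed arrays were again above all others, with a rise of 0.65 ± 0.093 (adjusted p = 0.000361) beside a Cre-positive change of -0.092 ± 0.077.

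Of the carriers of neutral amino acids, Slc38a2 and Slc7a5 rose and Slc3a2 and Slc1a4 were not called. Slc38a2 (SNAT2), which imports glutamine and other small neutral amino acids, read -2.10, -2.04, -1.98 and -2.09 uncrushed and -1.69, -1.50 and -1.74 crushed in Cre-negative retinas. Its Cre-positive arrays read -2.06, -2.01, -2.18, -1.98 and -2.07 uncrushed and -2.03, -1.86, -2.07, -1.90 and -1.95 crushed, with overlap. The Cre-negative rise was 0.41 ± 0.070 (adjusted p = 0.0022, limma). Slc7a5 (LAT1), the light chain of a leucine exchanger, read -2.12, -2.26, -2.24 and -2.24 uncrushed and -1.82, -1.83 and -1.97 crushed in Cre-negative retinas. It read -2.19, -2.26, -2.21, -2.27 and -2.18 uncrushed and -2.14, -2.10, -1.98, -2.16 and -2.11 crushed in Cre-positive retinas. Crushed arrays lay above uncrushed ones in both genotypes, by 0.34 ± 0.058 (adjusted p = 0.00226) and 0.12 ± 0.048 (adjusted p = 0.402). The dimmer probe of Slc7a5 gave 0.034 ± 0.078 in Cre-negative retinas (adjusted p = 0.907), so its 2 probes disagreed. Slc3a2, the heavy chain shared by Slc7a5 and Slc7a11, gave 0.18 ± 0.068 with no overlap but no call (adjusted p = 0.232), and the alanine, serine and cysteine carrier Slc1a4 gave 0.032 ± 0.060.

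Slc7a11 (xCT), which exchanges glutamate for cystine, was one of the dimmest genes of the set. It ranged from -0.79 to -0.24 uncrushed and from 0.037 to 0.081 crushed in Cre-negative retinas, a rise of 0.54 ± 0.12 (adjusted p = 0.0214, limma), beside 0.064 ± 0.10 in Cre-positive retinas. Leaving out Cre-negative uncrushed array 1 or 2, or any Cre-negative crushed array, took this call away (log2 change 0.43 to 0.62 over the 17 such fits, adjusted p up to 0.0887). With the scanner's processed signals the change was 0.89 (adjusted p = 0.0519) in place of 0.54, and with the array of disagreeing labels counted as Cre-negative crushed it was 0.28 (adjusted p = 0.546). With slide as a fixed block it was 0.52 (adjusted p = 0.0818). The call was lost under each of these 3 settings. It was also lost with the Cy5 channel alone (0.84, adjusted p = 0.0844, limma). The same held with the array of disagreeing labels counted as Cre-negative uncrushed (0.64, adjusted p = 0.0514). The cause was not tested.

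Of the 20 cytosolic synthetases, 8 rose after crush in Cre-negative retinas: those for cysteine, glycine, serine, threonine, asparagine, alanine, tyrosine and leucine. Cars, the cysteinyl enzyme, read -0.43, -0.41, -0.50 and -0.58 uncrushed and 0.089, 0.15 and 0.17 crushed in Cre-negative retinas. It read -0.35, -0.61, -0.46, -0.69 and -0.44 uncrushed and -0.22, -0.15, -0.21, -0.40 and -0.11 crushed in Cre-positive retinas. The Cre-negative rise was 0.62 ± 0.081 (adjusted p = 0.000123, limma), and in Cre-positive retinas Cars came nearest of the 39 genes to a call, at 0.29 ± 0.067 (adjusted p = 0.052). Gars, the glycyl enzyme, read 0.25, 0.37, 0.27 and 0.27 uncrushed and 0.84, 0.74 and 0.90 crushed in Cre-negative retinas. It read 0.31, 0.30, 0.27, 0.28 and 0.37 uncrushed and 0.37, 0.45, 0.35, 0.44 and 0.66 crushed in Cre-positive retinas, where crushed array 5, the array high in lens markers, was far above the other 4. The changes were 0.54 ± 0.068 (adjusted p = 8.88e-05) and 0.15 ± 0.056 (adjusted p = 0.391).

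Sars, the seryl enzyme, had little spread within groups. It read -0.40, -0.36, -0.38 and -0.42 uncrushed and 0.14, 0.058 and 0.089 crushed in Cre-negative retinas, and -0.48, -0.36, -0.34, -0.38 and -0.35 uncrushed and -0.30, -0.34, -0.32, -0.26 and -0.35 crushed in Cre-positive retinas. All 14 arrays outside the Cre-negative crushed group lay below 0 and the 3 crushed arrays above it, a rise of 0.49 ± 0.049 (adjusted p = 6.28e-06, limma), while the Cre-positive change was 0.067 ± 0.041. Tars, the threonyl enzyme, read -1.57, -1.57, -1.68 and -1.75 uncrushed and -1.19, -1.25 and -1.06 crushed in Cre-negative retinas. In Cre-positive retinas it read -1.48, -1.68, -1.76, -1.67 and -1.54 uncrushed and -1.41, -1.35, -1.42, -1.44 and -1.16 crushed. Crushed arrays of Tars were higher without overlap in both genotypes, by 0.48 ± 0.080 (adjusted p = 0.00198) and 0.27 ± 0.066 (adjusted p = 0.0715).

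Aars, the alanyl enzyme, read -0.57, -0.47, -0.75 and -0.76 uncrushed and -0.18, -0.27 and -0.14 crushed in Cre-negative retinas. It read -0.65, -0.64, -0.62, -0.54 and -0.57 uncrushed and -0.42, -0.47, -0.22, -0.40 and -0.21 crushed in Cre-positive retinas, again without overlap. The changes were 0.44 ± 0.079 (adjusted p = 0.00348, limma) and 0.26 ± 0.065 (adjusted p = 0.0839). Lars, the leucyl enzyme, read -0.69, -0.57, -0.59 and -0.63 uncrushed and -0.35, -0.40 and -0.38 crushed in Cre-negative retinas. Its Cre-positive arrays read -0.58, -0.68, -0.69, -0.66 and -0.60 uncrushed and -0.61, -0.50, -0.55, -0.59 and -0.50 crushed and overlapped. The Cre-negative rise of 0.24 ± 0.051 was the smallest called (adjusted p = 0.012), and leaving out Cre-negative uncrushed 1, crushed 1 or crushed 3 took it just past the threshold (log2 change 0.22, 0.23 and 0.24; adjusted p up to 0.0688).

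The remaining called synthetases were Nars and Yars, for asparagine and tyrosine. Nars ranged from -1.21 to -0.96 uncrushed and from -0.85 to -0.31 crushed in Cre-negative retinas, a rise of 0.47 ± 0.10 (adjusted p = 0.012, limma) with wide spread in the crushed group. Without Cre-negative crushed array 2 it was 0.33 (adjusted p = 0.0719). Yars, a dim gene, ranged from -0.66 to -0.52 uncrushed and from -0.34 to -0.23 crushed, a rise of 0.32 ± 0.077 (adjusted p = 0.0361). Leaving out any of the 7 Cre-negative arrays took the Yars call away (log2 change 0.29 to 0.35 over the 17 such fits, adjusted p up to 0.142), as did slide as a fixed block (0.30, adjusted p = 0.0862). The Yars call was also lost with the scanner's processed signals (0.46, adjusted p = 0.0589, limma) and with the Cy5 channel alone (0.38, adjusted p = 0.0681). With the array of disagreeing labels counted as Cre-negative uncrushed it was lost too (0.23, adjusted p = 0.407). In Cre-positive retinas Nars gave -0.085 ± 0.080 and Yars 0.032 ± 0.064.

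**Figure D2:**
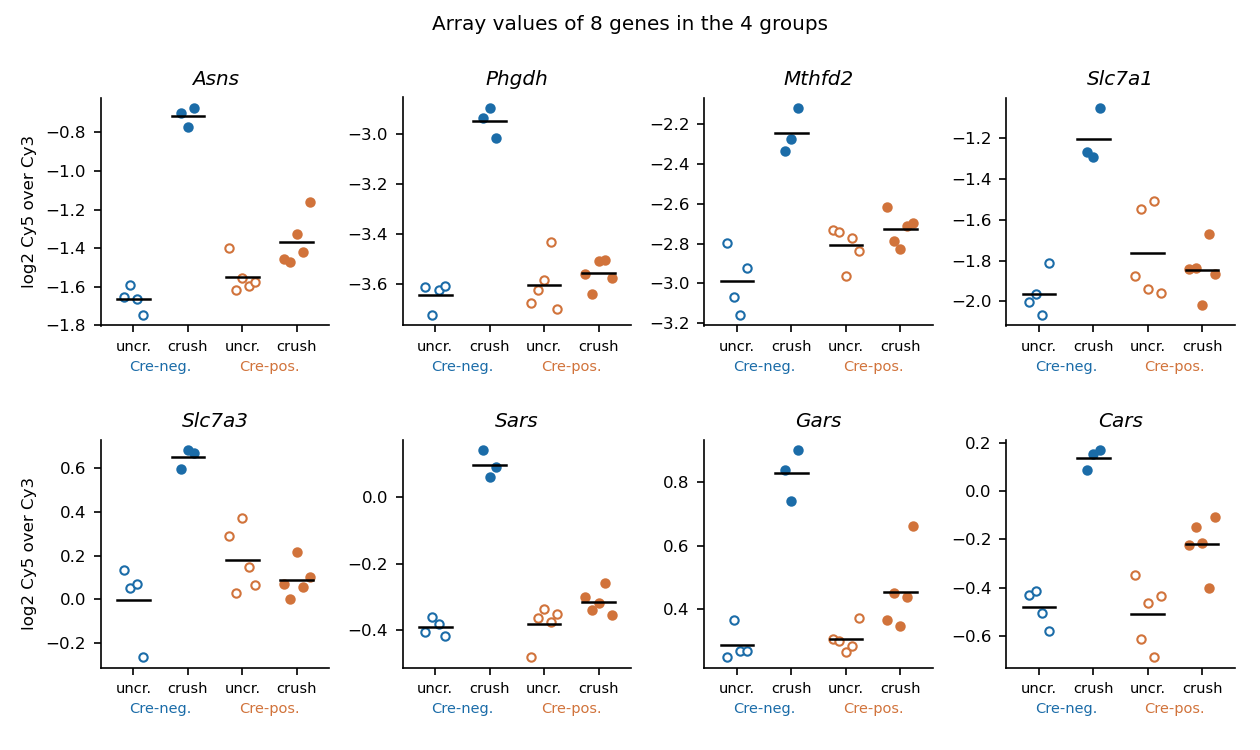
Log2 of retinal (Cy5) over reference (Cy3) signal on each array (points) with the group mean (bar) for 8 genes, in Cre-negative uncrushed (n = 4) and crushed (n = 3) and Cre-positive uncrushed (n = 5) and crushed (n = 5) retinas; each panel has its own y axis, which does not start at 0. In every panel the 3 filled blue points of the Cre-negative crushed group lie above all other points, for Asns at -0.77 to -0.67 against at most -1.16 elsewhere.

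The 12 synthetases that were not called lay between -0.072 (Dars, the aspartyl enzyme) and 0.23 (Rars, the arginyl enzyme) in Cre-negative retinas, and Wars, the tryptophanyl enzyme, came nearest to a call (0.22 ± 0.058, adjusted p = 0.0576). Dars was the least precise, with a 95% interval from -0.53 to 0.38. In animal cells 8 of the 20 enzymes sit in the multisynthetase complex (Dars, Eprs, Iars, Kars, Lars, Mars, Qars and Rars). Of these 8, Lars was called and the median change was 0.089; of the other 12 synthetases, 7 were called and the median was 0.38. This grouping was made after the values had been seen and was not tested.

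Whether the crush response itself differed between genotypes was tested directly, as the Cre-positive response minus the Cre-negative response. For 6 of the 39 genes the response was smaller in Cre-positive retinas and for none larger, against 0.284% of all genes called smaller and 0.134% larger (0.418% in all). These were Slc7a1 (-0.84, 95% interval -1.14 to -0.54, adjusted p = 0.00702), Asns (-0.77, -0.97 to -0.57, adjusted p = 0.000249) and Slc7a3 (-0.74, -0.99 to -0.49, adjusted p = 0.00404), all by limma. Mthfd2 (-0.66, -0.89 to -0.43, adjusted p = 0.00448), Phgdh (-0.65, -0.82 to -0.47, adjusted p = 0.000335) and Sars (-0.42, -0.55 to -0.29, adjusted p = 0.00224) completed the list. Each therefore lost at least 0.29 log2 units of response by the near end of its interval. The median difference over the 39 genes was -0.20 and over all genes 0.0028, and 34 of the 39 differences were below 0, where 50.8% of all genes were above 0.

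The other 12 genes that rose in Cre-negative retinas also had differences below 0, none of which passed. Gars (-0.39, adjusted p = 0.0701, limma) and Nars (-0.55, adjusted p = 0.0731) came nearest. For Psat1, Tars and Aars the 95% intervals reached past 0 (-0.46 to 0.011, -0.42 to 0.014 and -0.40 to 0.035). These intervals are not adjusted for the number of genes tested. A smaller response in Cre-positive retinas was not shown for any of the 12, nor was an equal one. A call in Cre-negative and none in Cre-positive retinas does not by itself separate the genotypes for these 12 genes.

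**Figure D3:**
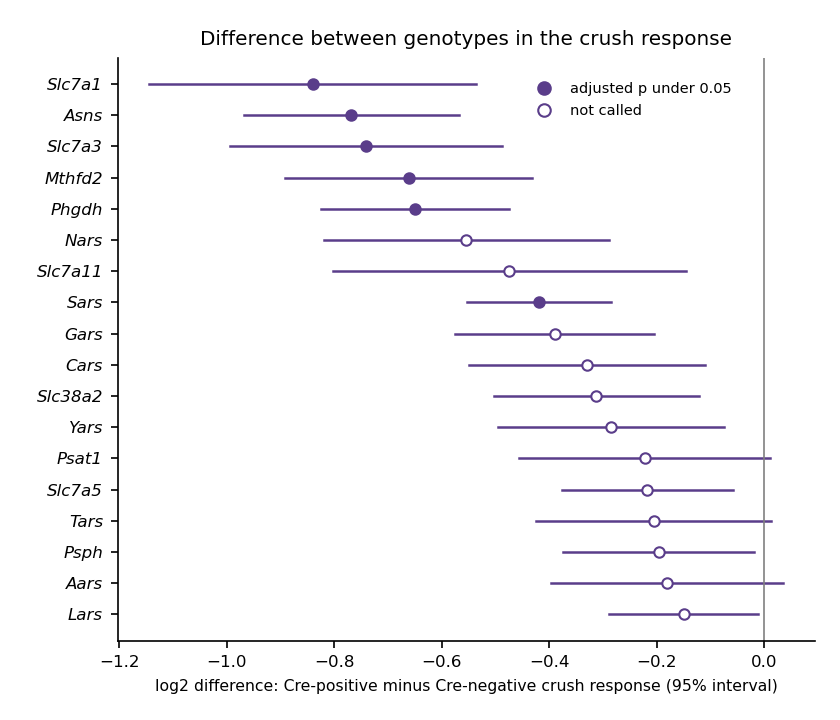
Difference between genotypes in the crush response (x axis, log2, Cre-positive minus Cre-negative, with 95% interval) for the 18 genes that were higher after crush in Cre-negative retinas, ordered by size; filled points passed an adjusted p under 0.05. All 18 points lie left of 0, from -0.84 for Slc7a1 to -0.15 for Lars, and the intervals of Psat1, Tars and Aars cross 0.

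Comparing genotypes within a state, uncrushed retinas showed no called difference in any of the 39 genes by limma, against 0.0118% of all genes called. An unadjusted p under 0.05 was reached by 4 of the 39 and by 1418 of all 25371 genes. The median log2 difference, Cre-positive minus Cre-negative, was 0.017 for the 39 genes. In crushed retinas 10 genes were lower in Cre-positive retinas and none was higher, against 0.548% of all genes called lower and 0.607% higher (1.15% in all). Asns differed by -0.65 ± 0.070 (adjusted p = 2.12e-05), Slc7a1 by -0.64 ± 0.11 (adjusted p = 0.00267) and Phgdh by -0.61 ± 0.061 (adjusted p = 8.81e-06). The other 7 were Slc7a3 (-0.56), Mthfd2 (-0.48), Sars (-0.41), Nars (-0.40), Gars (-0.37), Cars (-0.36) and Slc38a2 (-0.32). The crushed groups of the 2 genotypes did not overlap for 17 of the 39 genes with Cre-positive lower, against 4.4% of all genes. This comparison and the crush response of Cre-negative retinas share the same 3 crushed arrays.

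For 3 of these 10 genes, Nars, Cars and Slc38a2, the call was lost when single arrays were left out. The same 3 lost it with slide as a fixed block, at log2 differences of -0.35, -0.32 and -0.26 (adjusted p = 0.209, 0.0824 and 0.209, limma). The Nars call was lost in 15 of the 17 fits that each left out 1 array, all except those without Cre-negative uncrushed 2 or Cre-negative crushed 3, and without Cre-negative crushed 2 its difference was -0.25. The Cars call was lost without Cre-positive crushed 1 or 4 or any Cre-negative crushed array (log2 difference -0.39 to -0.31 over the 17 fits, adjusted p up to 0.122). The Slc38a2 call was lost without Cre-positive crushed 1 or Cre-negative crushed 1 or 2 (down to -0.25, adjusted p = 0.164).

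The crush response could also be read within slides, since 3 of the 5 slides held both Cre-negative groups and 4 held both Cre-positive groups. The median change over the 39 genes was 0.21, 0.28 and 0.27 on the Cre-negative slides and 0.066, 0.078, 0.065 and 0.036 on the Cre-positive slides. Asns changed by 0.89 to 1.05 within Cre-negative slides and by 0.10 to 0.24 within Cre-positive slides. For Phgdh the ranges were 0.67 to 0.73 and 0.0016 to 0.10, and for Slc7a1 0.54 to 0.91 and -0.29 to 0.12. Among the arrays with agreed labels, every crushed sample lay at position 2 or 4 of its slide and every uncrushed sample at 1 or 3. Position on the slide and crush can therefore not be told apart. On slides 2, 3 and 4 the Cre-positive samples lay at positions 1 and 2 and the Cre-negative samples at 3 or 4. Genotype was thus tied to position on these slides, and the part of position in the genotype comparisons was not tested. The array with disagreeing labels lay at position 4 of slide 5, and which of its labels is right was not tested.

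Further lists of related genes covered the rest of amino acid metabolism. None of 17 mitochondrial synthetases (median -0.0022) and none of 10 genes of the synthetase complex and related factors (median 0.042) was called after crush in Cre-negative retinas by limma, and none of either list had an unadjusted p under 0.05. The mitochondrial genes with the smallest adjusted p were Sars2 (-0.12), Aars2 (-0.10), Fars2 (0.075) and Ears2 (0.17). Of the scaffold and related genes these were Aimp1 (0.14), Dtd1 (-0.11), Aimp2 (0.072) and Sepsecs (0.11). Neither list had a call in Cre-positive retinas either, with none at an unadjusted p under 0.05.

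Among 28 further enzymes of amino acid and folate metabolism none was called after crush in Cre-negative retinas by limma. There 6 of the 28 had an unadjusted p under 0.05, against 3393 of all 25371 genes. In Cre-positive retinas 2 of the 28 were called. These were Aldh1l1, a cytosolic folate enzyme used as an astrocyte marker, which rose by 0.40 ± 0.092 (adjusted p = 0.0497), and glutamine synthetase, Glul, a Müller glia enzyme, which fell by 0.50 ± 0.11 on the log2 scale (adjusted p = 0.0475). In Cre-negative retinas these 2 gave 0.36 ± 0.11 and -0.17 ± 0.13, and the difference between genotypes was not called for either (adjusted p = 0.962 and 0.654). The mitochondrial folate genes Mthfd1l (0.18, adjusted p = 0.0989) and Mthfd2l (-0.23, adjusted p = 0.158) and the glycine cleavage gene Gcsh (-0.15, adjusted p = 0.16) did not pass. None of 24 further amino acid transporters was called in either genotype by limma. In Cre-negative and Cre-positive retinas 1 and 3 had an unadjusted p under 0.05, against 3393 and 2423 of all 25371 genes. The 4 smallest adjusted p were in Slc7a14 (0.34), Slc1a3 (0.12), Slc25a13 (0.20) and Slc1a5 (-0.11).

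A last list held 19 genes that regulate or sense this pathway, with ATF4 itself and its partners and targets among them. Of the 19, 10 were higher after crush in Cre-negative retinas and 2 in Cre-positive retinas, and 6 had a smaller response in Cre-positive retinas. Over all genes the shares called were 1.34%, 0.682% and 0.284%. Chac1, a glutathione-degrading enzyme, rose by 2.51 ± 0.14 in Cre-negative retinas, and its response was smaller in Cre-positive retinas, by -2.02 (Cre-positive minus Cre-negative, adjusted p = 4.75e-06, limma). Atf3 was called in both genotypes, with rises of 1.99 ± 0.11 (Cre-negative) and 0.90 ± 0.088 (Cre-positive). Gdf15 and Atf5 rose by 1.18 ± 0.069 and 1.32 ± 0.10 in Cre-negative retinas. Atf4 RNA rose by 0.63 ± 0.13 (adjusted p = 0.0108), and its difference between genotypes did not pass (-0.42, adjusted p = 0.496).

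**Figure D4:**
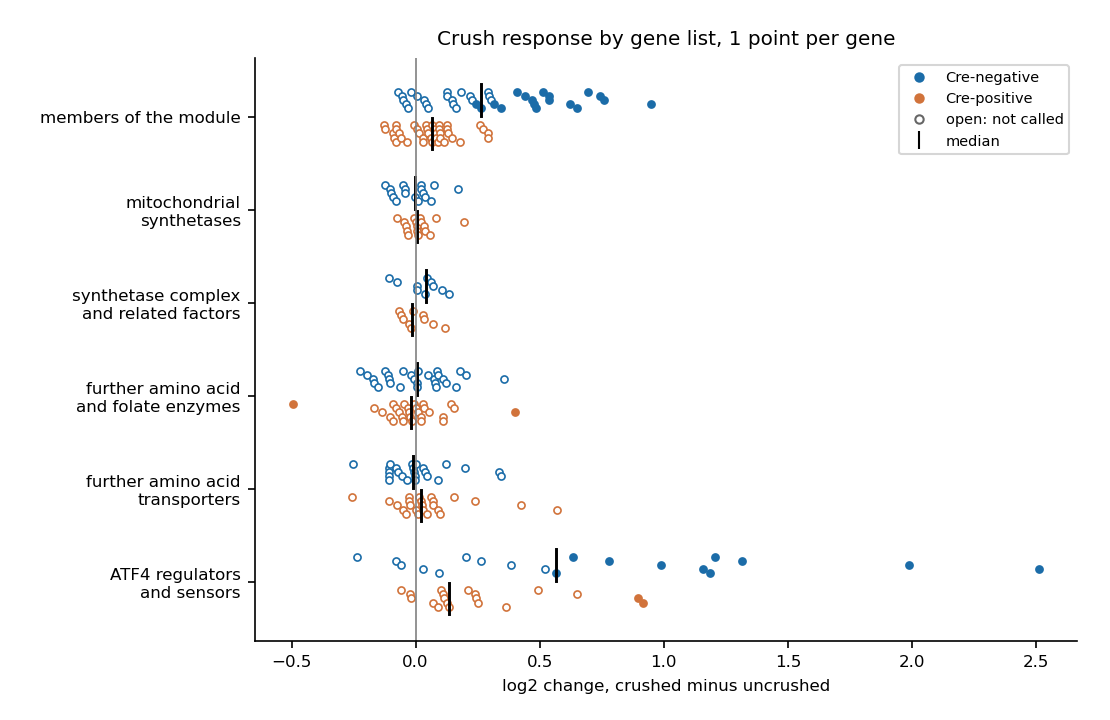
Log2 change from uncrushed to crushed retina (x axis) for each gene of the 39-gene set and of 5 related lists, in Cre-negative (blue) and Cre-positive (orange) retinas; filled points passed an adjusted p under 0.05 and black bars mark list medians. Calls in Cre-negative retinas lie in the set itself (18 of 39, median 0.26) and among the ATF4 regulators and sensors (10 of 19, median 0.56), and none lies in the other 4 lists.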

How the data were processed

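Whole-retina RNA (Cy5) and a universal mouse reference RNA (Cy3) were hybridised to 2-colour arrays and read with Agilent Feature Extraction 10.7.3.1, per the file headers. The deposited scanner tables give median spot and background intensity per channel, before any normalization, and a processed intensity from the scanner software. The authors' deposited value table states no scale; set against the scanner values it held log2 of Cy5 over Cy3, and it was used as an alternative. limma is named in the submitters' processing notes.

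From the median intensities, background was corrected with normexp (offset 50) and each array was normalized by loess (limma 3.58.1, R 4.3.3). Spots of a probe were averaged and the brightest probe of each gene was used. Genes whose Cy5 signal was well above background on at least 3 of the 17 arrays with agreed labels were kept (25371, of which 16790 have a symbol). A probe without a symbol was counted as a gene of its own, so shares of all genes include such probes. One model with 4 group means gave 5 comparisons (13 residual degrees of freedom), with Benjamini-Hochberg adjustment over all genes in each and a call at an adjusted p under 0.05. The script was tested on simulated data. Precision is set by the 3 to 5 arrays of a group.

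The genes and lists were chosen with earlier results of these data known. Array values are given for the 14 called genes with the smallest adjusted p after crush in Cre-negative retinas, ranges for the other called genes, and of each further list the 4 genes with the smallest adjusted p or those called. Replicate numbers follow accession order and pair no samples. Alternatives varied background, scaling, filter, probe rule, slide as a block, array weights, the samples fitted and each array left out; the one without the 2 arrays high in cornea or lens markers was chosen after seeing the data. Promoter windows are RefSeq's on GRCm38.p6.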

Additional observations from a re-analysis of the deposited data

Results flagged for a closer look

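Within groups of 4 or 5 arrays, 5 of 54 tests over the 18 called genes found an array far from the others by Dixon's criterion, where chance flags about 1 in 20. Cre-positive uncrushed array 1 accounted for 3: Asns read -1.40 there (others -1.61 to -1.55), Sars -0.48 (others -0.38 to -0.34) and Psat1 -2.18 (others -2.29 to -2.27). On that array the authors' values also lay furthest from the scanner values (r = 0.951 with probe means removed). Phgdh read -3.73 on Cre-negative uncrushed array 2 (others -3.63 to -3.61), and Slc7a5 read -2.12 on Cre-negative uncrushed array 1 (others -2.26 to -2.24). These are log2 ratios of retina over reference.

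The crush response differed between genotypes by limma's test of the difference for Slc7a1 (-0.84), Asns (-0.77), Slc7a3 (-0.74), Mthfd2 (-0.66), Phgdh (-0.65) and Sars (-0.42), Cre-positive minus Cre-negative on the log2 scale.

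The Cre-negative array whose labels disagree about crush was in no comparison. On it, 17 of the 18 called genes read above every Cre-negative uncrushed array. The synthetases read -0.23 (Aars), 0.034 (Cars), 0.77 (Gars), -0.46 (Lars), -0.56 (Nars), -0.0045 (Sars), -1.29 (Tars) and -0.14 (Yars). The enzymes read -0.76 (Asns), -2.96 (Phgdh), -1.84 (Psat1), -0.50 (Psph) and -2.34 (Mthfd2), and the transporters -1.75 (Slc7a5), -1.56 (Slc7a1), 0.58 (Slc7a3) and -1.84 (Slc38a2). Of the 18, 9 lay within the range of the Cre-negative crushed arrays or above it and 9 below it, and Slc7a11, at -0.97, was the gene not above the uncrushed arrays.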

How the results depend on the processing

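No paired analysis was possible because the replicate numbers were given in accession order and the labels do not tie arrays to animals. Over 33 alternatives (32 for the difference) none of the called values changed sign (18 genes after crush in Cre-negative retinas, 10 between crushed genotypes and 6 in the difference), and 94 of their 1116 values lost the call. Several alternatives keep the log2 change itself, such as a trend in the variance or leaving out an array of a group not compared. Under these the sign could not change, and they count among the 1116. Values near 0 that were not called did change sign under some alternatives, among them Got1 (4), Cbs (3), Dars (2) and Slc1a4 (2) after crush in Cre-negative retinas and Slc7a11 (2) and Yars (2) in Cre-positive retinas. The number of the 39 genes called after crush in Cre-negative retinas was 18 and fell to 5 with the disagreeing array counted as Cre-negative uncrushed, a setting that also left 0 in the difference (6) and 3 between genotypes after crush (10). Fitting only the 2 groups compared gave 6 in the last. After crush in Cre-positive retinas (0), 1 was called with the filter on every array, with the disagreeing array as crushed or with a trend in the variance, and 2 with slide as a fixed or random block. Leaving out 1 array at a time gave 14 to 19, 0 to 2, 6 to 7, 0 throughout and 7 to 11 called after crush in Cre-negative retinas, after crush in Cre-positive retinas, in the difference, between uncrushed genotypes and between crushed genotypes; the Cre-positive count was 2 without uncrushed array 1 and 1 without crushed array 1 or 4. Cars was called after crush in Cre-positive retinas under 7 alternatives and Gars in the difference under 5. Counts over all genes moved by more than 1.5 times as follows. After crush in Cre-negative retinas 546 genes became 73 with the disagreeing array as uncrushed, 1165 with array weights, and 327 or 332 without Cre-negative crushed array 1 or 3. After crush in Cre-positive retinas 195 became 10 with the disagreeing array as uncrushed, 52 in a fit of the 2 groups, 120 without the 2 arrays high in cornea or lens markers, and 110, 116 or 129 without Cre-positive uncrushed array 2 or 5 or crushed array 5. In the difference 106 became 0 with the disagreeing array as uncrushed and 69 with the scanner's processed signals. Between crushed genotypes 293 became 145 with slide as a fixed block, 116 with the disagreeing array as uncrushed, 514 with array weights, and 194 or 167 without Cre-negative crushed array 1 or 2. Between uncrushed genotypes 3 became 0 or 1 under 16 of the 33 alternatives. The causes were not tested. Slc7a11 had the largest standard error of the called genes (0.12), at a mean Cy5 intensity of 250.4, and Yars, at 219, had one of 0.077.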

Other observations

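Of the 39 genes, 7 had another probe that passed the filter. After crush in Cre-negative retinas these gave log2 changes of 0.73 ± 0.071 for Phgdh (adjusted p = 4.85e-06, limma), 0.37 ± 0.11 for Psat1 (adjusted p = 0.0958), 0.20 ± 0.062 for Psph (adjusted p = 0.116) and 0.034 ± 0.078 for Slc7a5. For the genes not called they gave 0.21 ± 0.090 for Cth, 0.10 ± 0.074 for Wars and -0.088 ± 0.064 for Farsa. The dimmer probe thus passed for Phgdh and did not for the other 3 called genes.

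The array with disagreeing labels also had a high sum of lens markers, at 5885 intensity units, next to 7812 on Cre-positive crushed array 5, while the other 16 arrays lay between 947 and 2107.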
